A study of Homo sapiens with 14 samples.

Results

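The genes described here encode the mTORC1 kinase complex, its inhibitors and substrates, and the machinery on the lysosome that tells the kinase whether amino acids are present. They are 35 genes chosen by name, of 18905 genes with guide RNAs in the tables: MTOR, RPTOR, RICTOR, MLST8, AKT1S1 and DEPTOR of the kinase complexes; RHEB, TSC1, TSC2 and TBC1D7 of the growth factor branch; LAMTOR1 to LAMTOR5 of Ragulator; the RAG GTPases RRAGA, RRAGB, RRAGC and RRAGD; FLCN, FNIP1 and FNIP2; DEPDC5, NPRL2 and NPRL3 of GATOR1; MIOS, WDR24, WDR59, SEH1L and SEC13 of GATOR2; the sensors SLC38A9, SESN1 and SESN2; and the substrates RPS6KB1 and EIF4EBP1. A guide belonged to a gene when its name in the count tables began with that symbol, which gave 175 guides.

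The data come from a pooled screen with CRISPR interference, in which a catalytically dead Cas9 fused to the KRAB repressor is led by a guide RNA to the start of a gene and lowers its transcription. The cells were HEK293 FLP-In, derived from human embryonic kidney and holding a docking site for transgenes. They carried the delta opioid receptor (DOR) fused to the peroxidase APEX2 (pUBC-SSF-DOR-APEX2) and dCas9-KRAB-BFP, and clonal populations were expanded after sorting for BFP. Guides of the genome-wide hCRISPRi-v2-top5 library, split over 7 sublibraries H1 to H7, were introduced at a multiplicity of about 0.2, and all cells were selected with puromycin (0.75 µg/ml, 3 days). After 8 days in all they received 10 µM of the opioid peptide DADLE for 90 minutes. Intact cells were reacted with Amplex UltraRed and hydrogen peroxide, so that peroxidase activity made them fluorescent, and were sorted by that fluorescence.

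The groups are the top (brightest) quartile and the bottom (dimmest) quartile of each sublibrary, with 1 library per group and 14 libraries in all. No sort was repeated, so that every p-value below compares the libraries of 1 sort through the several guides of a gene, and not repeated sorts. No unstimulated cells were among the samples, and a changed loss of receptor after the agonist cannot be told apart from other changes in the APEX2 signal. How far each guide lowered its gene was not analysed here. The top table of H4 held 35 complete guides and 0 guides of the 35 genes, so 12 libraries of 6 sublibraries were compared. That left 30 of the 35 genes; LAMTOR1, RRAGB, RRAGC, SEH1L and SEC13 lie in H4 and have a bottom library only.

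As background, mTORC1 promotes protein synthesis and growth and restrains autophagy and lysosome formation. When amino acids are plentiful, the pentameric Ragulator complex holds the RAG GTPases on the lysosome surface, the RAG dimer draws mTORC1 there, and RHEB then activates the kinase. FLCN with FNIP1 or FNIP2 is the GTPase activator of RRAGC and RRAGD and thereby favours recruitment of certain substrates. GATOR1 is the opposing GTPase activator, acting on RRAGA and RRAGB to switch the pathway off, and is itself held in check by GATOR2. The Sestrins bind GATOR2 when leucine is scarce, SLC38A9 senses arginine inside the lysosome, and the TSC complex switches RHEB off.

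CRISPR interference acts close to the transcription start, and the guide names give a position and a strand but no guide sequence. The promoters of the 5 genes that passed the test below are shown for orientation. The build of the guide positions is not given, so where the guides lie relative to these windows was not examined, and LAMTOR5, LAMTOR3 and DEPDC5 have further listed starts downstream. The sequences are RefSeq sequences of assembly GRCh38.p14, from 250 bases before the most upstream listed start, in lower case, through 50 bases from the start on, in capitals, written 5′ to 3′ on the strand of the gene.
LAMTOR5 promoter (chr1:110407875-110408174, minus strand): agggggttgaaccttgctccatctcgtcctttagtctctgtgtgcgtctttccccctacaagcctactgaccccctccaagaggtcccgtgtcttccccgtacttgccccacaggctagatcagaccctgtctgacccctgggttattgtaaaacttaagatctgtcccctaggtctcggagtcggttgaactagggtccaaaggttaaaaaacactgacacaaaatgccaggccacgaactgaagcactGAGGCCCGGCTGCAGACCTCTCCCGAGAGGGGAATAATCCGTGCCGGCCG
LAMTOR3 promoter (chr4:99894497-99894796, minus strand): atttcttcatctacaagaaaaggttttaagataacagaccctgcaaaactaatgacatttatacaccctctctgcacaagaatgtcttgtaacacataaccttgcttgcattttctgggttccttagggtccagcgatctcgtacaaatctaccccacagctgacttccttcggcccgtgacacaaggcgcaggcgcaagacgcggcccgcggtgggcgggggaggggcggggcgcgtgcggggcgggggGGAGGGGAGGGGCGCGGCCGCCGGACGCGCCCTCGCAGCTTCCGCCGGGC
FLCN promoter (chr17:17237119-17237418, minus strand): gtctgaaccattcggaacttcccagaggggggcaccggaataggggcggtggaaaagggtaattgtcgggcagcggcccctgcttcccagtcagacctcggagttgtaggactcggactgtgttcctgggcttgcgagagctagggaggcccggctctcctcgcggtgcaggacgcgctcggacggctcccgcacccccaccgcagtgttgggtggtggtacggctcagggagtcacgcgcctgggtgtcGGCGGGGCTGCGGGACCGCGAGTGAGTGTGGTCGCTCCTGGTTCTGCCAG
DEPDC5 promoter (chr22:31753718-31754017, plus strand): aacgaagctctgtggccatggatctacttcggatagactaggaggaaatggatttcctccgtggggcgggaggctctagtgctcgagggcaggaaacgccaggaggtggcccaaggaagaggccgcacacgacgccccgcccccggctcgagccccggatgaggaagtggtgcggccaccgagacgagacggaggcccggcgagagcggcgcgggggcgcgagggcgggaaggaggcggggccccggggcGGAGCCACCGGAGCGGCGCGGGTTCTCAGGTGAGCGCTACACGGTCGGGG
SESN2 promoter (chr1:28259268-28259567, plus strand): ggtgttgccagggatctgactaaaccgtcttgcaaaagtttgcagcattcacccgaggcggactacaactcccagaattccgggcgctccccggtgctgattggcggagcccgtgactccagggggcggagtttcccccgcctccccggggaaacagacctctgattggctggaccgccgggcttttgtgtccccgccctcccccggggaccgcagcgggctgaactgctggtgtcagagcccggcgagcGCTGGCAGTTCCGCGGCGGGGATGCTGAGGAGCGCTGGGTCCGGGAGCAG
The GC content of these windows was 55.3% for LAMTOR5, 59.7% for LAMTOR3, 67% for FLCN, 70.7% for DEPDC5 and 67% for SESN2. The median over the promoters of the 28 genes of the module with a listed promoter was 67%, against 58.7% over 35116 RefSeq promoters.

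The compared libraries held between 18054418 counts in H6 bottom and 34636612 counts in H2 top. A guide's value is log2(top/bottom) of its share of the library, set to 0 at the median non-targeting guide of its sublibrary, so that a positive value means more frequent in bright cells and a negative value more frequent in dim cells. Non-targeting guides had an SD between 0.215 in H3 and 0.333 in H7, whereas counting alone gives 0.0546 to 0.0843, so that guides scatter by more than counting error. Values of genes are averages of their guides, given with the SD over guides. Of 150 member guides in both quartiles, 149 had at least 50 counts in either library, and 1 guide of NPRL3 was dropped with 40 counts in the top and 15 in the bottom library. A gene is called when its two-sided permutation p, adjusted by Benjamini-Hochberg over 18116 targets (gene starts), was under 0.05. The smallest adjusted p that 100000 draws could give was 6.94e-04.

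Of the 30 compared genes 5 were called, or 16.7%, against 3.94% of all targets and 4.2% of the 16684 genes at their primary start. The genes were chosen with earlier results of these data known, so this share describes them and is not a test. SESN2 and DEPDC5 were higher in the top quartile (2 of 30; 2.41% of all targets) and LAMTOR5, FLCN and LAMTOR3 were higher in the bottom quartile (3 of 30; 1.53% of all targets). Those on the dim side are 2 Ragulator subunits and FLCN, and those on the bright side are DEPDC5 of GATOR1 and, through 1 guide, SESN2. The kinase, its activator RHEB, the TSC complex and the substrates were not called. Over all 30 genes the median of the means was -0.04, against 0.01 over all targets, and 16 genes lay within 0.2 of 0. At an unadjusted p under 0.05 there were 14 of the 30, against 2243 of the 18116 targets. All guides of a gene lay on one side of 0 in 8 of the 30 genes, and in 10.8% of all targets.

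**Figure D1:**
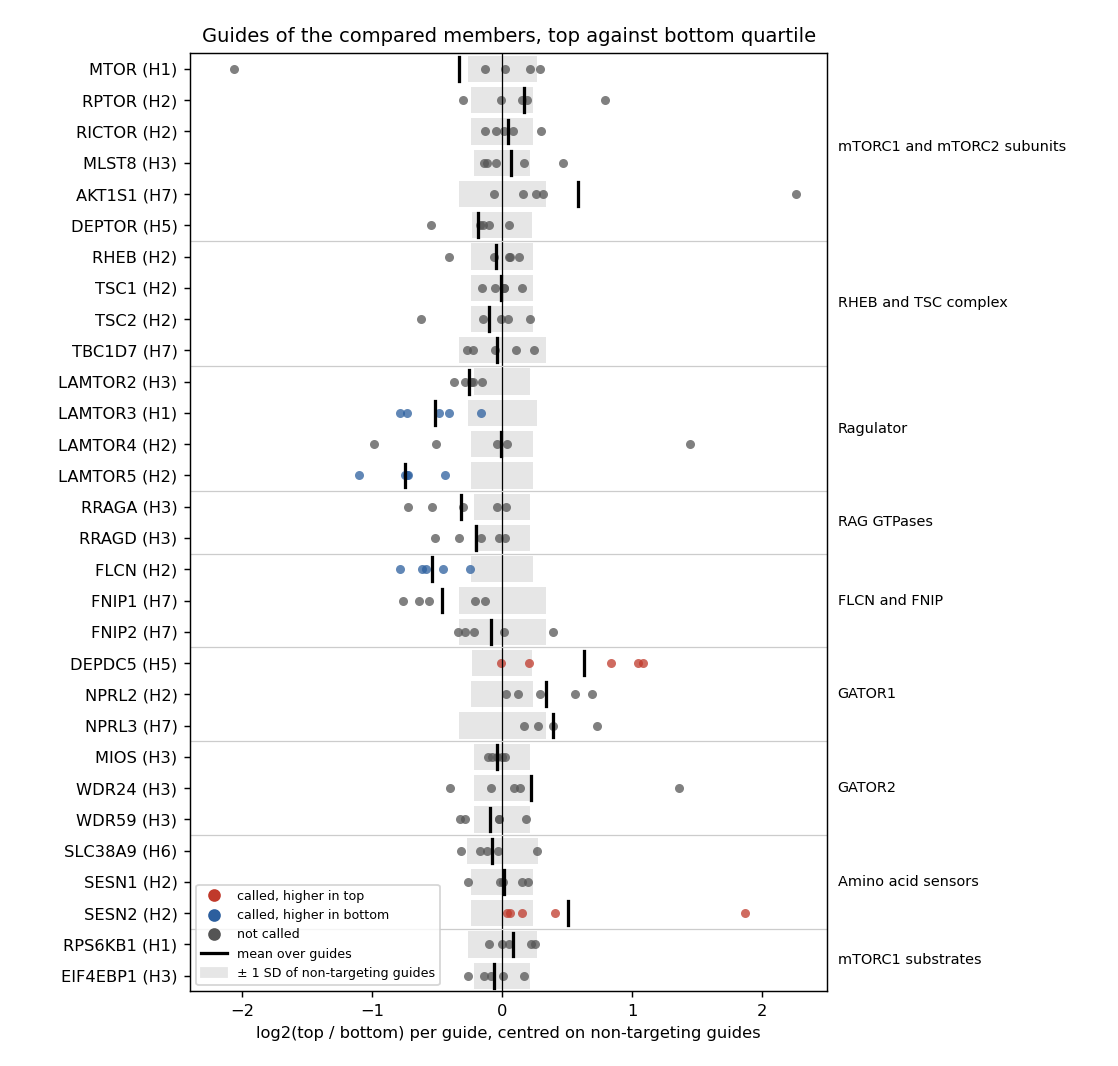
Each point is 1 guide of a compared gene, on a horizontal axis of log2(top/bottom) centred on non-targeting guides, with genes grouped by complex and their sublibrary in brackets. Black bars are means over guides and grey boxes span ± 1 SD of that sublibrary's non-targeting guides. The points of DEPDC5 and the 5 guides of SESN2, in red, lie at or right of -0.01, and all guides of LAMTOR5, LAMTOR3 and FLCN, in blue, lie left of 0. Single guides stand apart in MTOR at -2.06, AKT1S1 at 2.26, SESN2 at 1.87, LAMTOR4 at 1.44 and WDR24 at 1.36.

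Ragulator is the scaffold that ties the RAG GTPases to the lysosome, and 18 of the 20 guides against its 4 compared subunits were below 0, against 48.7% of the guides of all genes at their primary start. All guides of the called LAMTOR5 and LAMTOR3 are among these 18. Guides of a gene are not independent, so this count and the like counts below describe the guides and were not tested. LAMTOR5, a roadblock-fold subunit at the core of the complex, had 1545, 969, 1286, 445 and 1787 counts per guide in H2 top, against 1649, 1258, 1679, 752 and 2359 counts in H2 bottom. After scaling for library size these gave -0.44, -0.72, -0.73, -1.10 and -0.75. Every guide was more frequent in dim cells, and the mean was -0.75 ± 0.24 (SD, 5 guides), a ratio of top to bottom of 0.596, with an adjusted p of 6.94e-04 by the permutation test. It was 11th from the lowest of 3209 targets in H2. Its 5 guide positions lie within 51 bases, so these guides address a single short stretch. With all guides of the sublibrary as background the call ended (adjusted p of 0.0851).

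LAMTOR3, known also as MP1 for its scaffolding of MAP kinase on late endosomes, had 2573, 1646, 712, 846 and 3295 counts in H1 top, against 3560, 1479, 950, 902 and 3699 counts in H1 bottom. The guide values were -0.78, -0.16, -0.73, -0.41 and -0.48. All guides lay below 0, the mean was -0.51 ± 0.25 (SD, 5 guides) and the adjusted p was 0.0291 in the permutation test. The 5 guide positions lie within 126 bases. Without the guide farthest from 0 the mean was -0.45, and the call ended at an adjusted p of 0.271 in the permutation test. The draws for that p kept their own farthest guides, which favours a lost call. With all guides of the sublibrary as background the call ended as well (adjusted p of 0.4, permutation test).

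LAMTOR2, the partner of LAMTOR3 in a heterodimer, had the narrowest spread of the compared Ragulator subunits, with 5 guides from -0.37 to -0.15 and a mean of -0.25 ± 0.08, but was not called (adjusted p of 0.16, permutation test). LAMTOR4, the partner of LAMTOR5, had guides that disagreed. They had 1739, 2605, 1436, 3788 and 1278 counts in H2 top, against 2713, 2002, 1605, 1096 and 1034 counts in H2 bottom. The values were -0.99, 0.03, -0.51, 1.44 and -0.04. The lowest and the highest lie beyond the non-targeting guides of H2, which ran from -0.73 to 0.62, so that the mean of -0.01 ± 0.91 summarises neither. Without the guide at 1.44 the mean was -0.37.

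The RAG GTPases form dimers of RRAGA or RRAGB with RRAGC or RRAGD, and the nucleotides they hold decide whether mTORC1 is recruited. RRAGA had 617, 2467, 1990, 2735 and 2753 counts per guide in H3 top, against 783, 3556, 1790, 2337 and 2966 counts in H3 bottom. The guide values were -0.54, -0.72, -0.04, 0.03 and -0.30. Of these guides 3 lie on the dim side and the others near 0, and the mean of -0.32 ± 0.32 missed the threshold with an adjusted p of 0.0531. RRAGD had guides from -0.52 to 0.02 and a mean of -0.20 ± 0.23, and was not called (adjusted p of 0.348, permutation test). Together 8 of the 10 guides of these GTPases were below 0, against 48.7% of the guides of all genes at their primary start. Guides of a gene are not independent, and this count was not tested.

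FLCN, folliculin, is the tumour suppressor of Birt-Hogg-Dubé syndrome, and with FNIP1 it turns RRAGC and RRAGD to the form that recruits TFEB and TFE3 for phosphorylation. Its guides had 2117, 3089, 1809, 2735 and 2985 counts in H2 top, against 2498, 2881, 1949, 3306 and 4050 counts in H2 bottom. The values were -0.58, -0.24, -0.45, -0.62 and -0.79, all below 0, from guide positions within 89 bases. The mean was -0.54 ± 0.20 (SD, 5 guides), a ratio of 0.689, with an adjusted p of 6.94e-04 in the permutation test, and the gene was 26th from the lowest of 3209 targets in H2. With all guides of the sublibrary as background, in place of the non-targeting guides, the call ended (adjusted p of 0.306).

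FNIP1 had guides at -0.21, -0.76, -0.56, -0.14 and -0.64 in H7, the sublibrary with the widest non-targeting spread, and a mean of -0.46 ± 0.27. It was not called (adjusted p of 0.118, permutation test), although all guides lay on the dim side. FNIP2, its paralog, had guides from -0.34 to 0.39 and a mean of -0.09 ± 0.30. Of the 15 guides of the 3 genes, 13 were below 0, against 48.7% of the guides of all genes at their primary start. All guides of FLCN, called above, are among these 13. Guides of a gene are not independent, and this count was not tested.

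**Figure D2:**
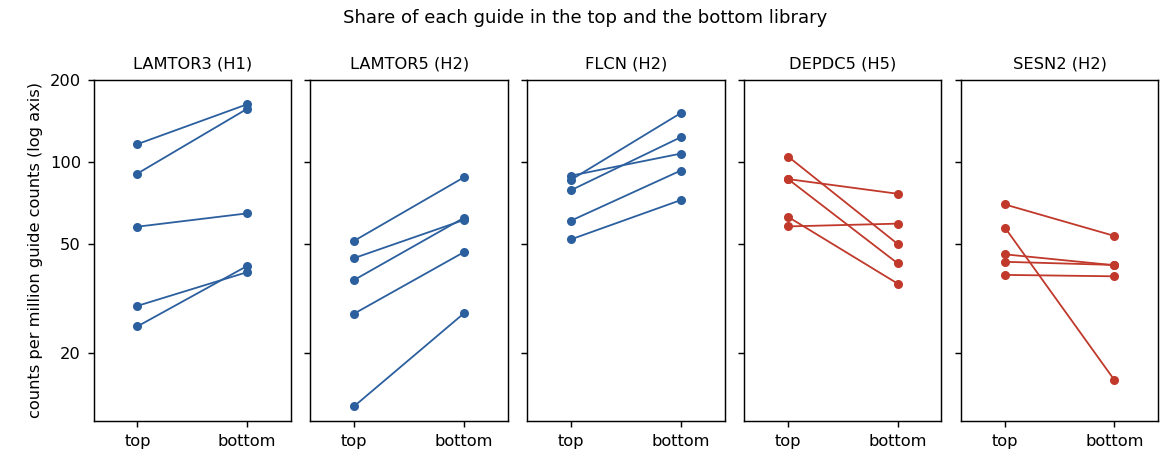
Each line joins the share of 1 guide in the top library (left) to its share in the bottom library (right), as CPM (counts scaled to a common library total) on a log axis, for the 5 called genes with their sublibrary in brackets. Shares are not centred on non-targeting guides here. The 15 guides of LAMTOR3, LAMTOR5 and FLCN have the smaller share in the top library. In SESN2 a single line is steep, with 57.6 CPM in the top and 16 CPM in the bottom library.

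GATOR1 is the brake on the RAG GTPases, and 13 of the 14 guides against its 3 subunits were above 0, against 51.3% of the guides of all genes at their primary start. Guides of a gene are not independent, and this count was not tested. DEPDC5, its largest subunit and an epilepsy gene, had 1569, 1142, 1897, 1569 and 1054 counts in H5 top, against 1683, 791, 1104, 938 and 1309 counts in H5 bottom. The guide values were 0.20, 0.83, 1.08, 1.05 and -0.01. The 3 highest guides lie apart from the rest in value, and by position they are neighbours. All 5 positions span 423 bases. The mean was 0.63 ± 0.50 (SD, 5 guides), a ratio of top to bottom of 1.55, with an adjusted p of 0.00207 in the permutation test. The call ended without the guide farthest from 0 (0.52, adjusted p of 0.0568, permutation test). The draws for that p kept their own farthest guides, which favours a lost call. It also ended with edgeR's quasi-likelihood test under either scaling (adjusted p of 0.147 and 0.17) and with the exact rank-sum test (adjusted p of 0.0884). With all guides of the sublibrary as background it ended too (adjusted p of 0.154, permutation test).

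NPRL2, the catalytic subunit of GATOR1, had 3995, 1132, 1891, 2961 and 2229 counts in H2 top, against 2571, 818, 922, 1584 and 1717 counts in H2 bottom. The values of 0.29, 0.12, 0.69, 0.56 and 0.03 were all above 0, and the mean of 0.34 ± 0.28 missed the threshold at an adjusted p of 0.0557. NPRL3, the subunit that pairs with NPRL2, had 4 guides in H7 from 0.17 to 0.73 and a mean of 0.39 ± 0.24, and was not called (adjusted p of 0.291, permutation test). The 3 subunits were measured in the 3 sublibraries H5, H2 and H7, and so in separate sorts.

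GATOR2 holds GATOR1 in check, and none of its 3 compared subunits was called, beside 3.94% of all targets, which does not set so few genes apart. MIOS had -0.04 ± 0.05 and WDR59 had -0.09 ± 0.21 (SD, 5 guides each). WDR24, the subunit farthest from 0, had 1198, 2215, 2468, 2436 and 1702 counts in H3 top, against 1110, 1756, 838, 2805 and 1396 counts in H3 bottom. Its guide values were -0.09, 0.14, 1.36, -0.40 and 0.09, so that 1 guide set the mean of 0.22 ± 0.67, which was -0.06 without it.

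Among the amino acid sensors SESN2, a stress-induced leucine sensor that acts on GATOR2, was called. It had 1341, 1594, 2424, 1497 and 1995 counts in H2 top, against 1027, 1127, 1442, 1130 and 429 counts in H2 bottom. The values were 0.04, 0.15, 0.40, 0.06 and 1.87, and the mean was 0.51 ± 0.78 (SD, 5 guides) with an adjusted p of 0.0474. The call rests on 1 guide: without it the mean was 0.16 and the gene was not called. The draws for that setting kept their own farthest guides, which favours a lost call. With the median over guides, which leaves no guide out, the value was 0.15 and the adjusted p was 0.763 (permutation test). SESN1, the p53-induced Sestrin, was measured at a start named by a transcript and had 0.02 ± 0.18. SLC38A9, the lysosomal arginine transceptor, had -0.08 ± 0.22.

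**Figure D3:**
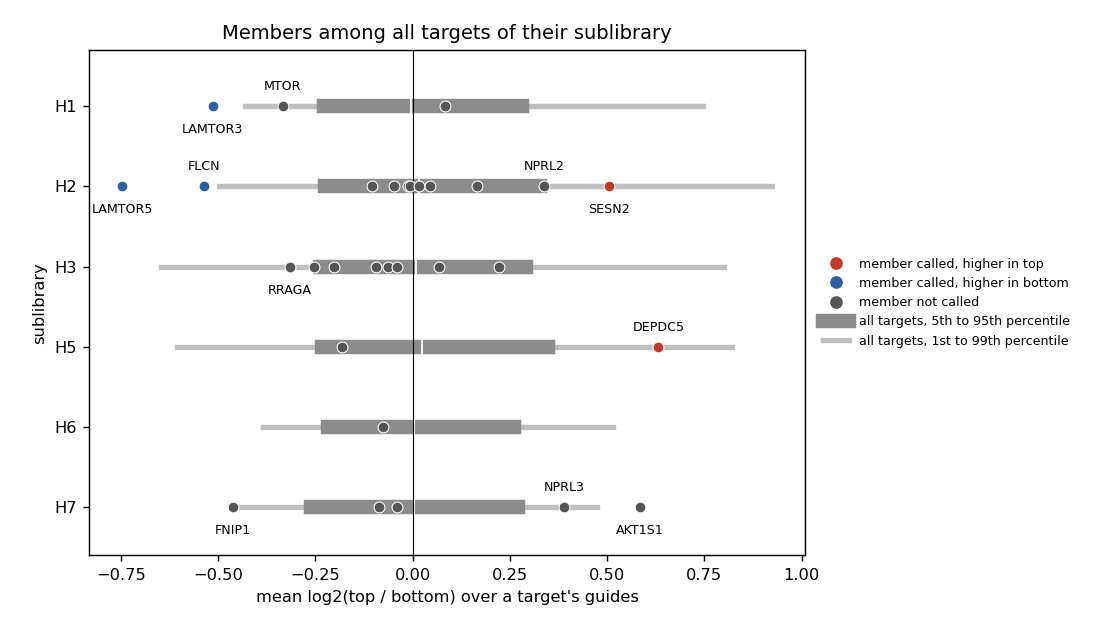
Points are the mean log2(top/bottom) of the 30 compared genes, 1 row per sublibrary, over bars for the 5th to 95th (dark) and 1st to 99th (light) percentile of all targets of that sublibrary. LAMTOR5 at -0.75 and FLCN at -0.54 in H2 and LAMTOR3 at -0.51 in H1 lie left of the light bars, and FNIP1 at -0.46 lies at the left end of that of H7. AKT1S1 at 0.58 in H7 lies right of them, and SESN2 and DEPDC5 lie within the light bars of H2 and H5.

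The kinase complexes themselves had no called gene among 6, beside 3.94% of all targets, which does not set so few genes apart. MTOR, the kinase of both complexes, had 1847, 2221, 1786, 494 and 1212 counts in H1 top, against 1623, 1758, 1238, 1660 and 795 counts in H1 bottom. A lone guide lay at -2.06 and the others between -0.13 and 0.29, and the lone one is beyond the lowest non-targeting guide of H1 at -0.85. The mean was -0.33 ± 0.98, with an adjusted p of 0.306, and was 0.10 without that guide. RPTOR, the scaffold of mTORC1 that binds the RAG dimer, had 0.17 ± 0.40, and RICTOR, the scaffold of mTORC2, had 0.04 ± 0.16. MLST8, which both complexes share, had 0.07 ± 0.25 (SD, 5 guides each).

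AKT1S1 encodes PRAS40, an inhibitor of mTORC1 and a substrate of AKT, and was farthest from 0 among the kinase complex genes. Its guides had 800, 519, 179, 2995 and 338 counts in H7 top, against 628, 452, 182, 2439 and 68 counts in H7 bottom. The values were 0.31, 0.16, -0.06, 0.26 and 2.26, so that 1 guide with few counts set the mean of 0.58 ± 0.95. The adjusted p was 0.0661, and the mean was 0.17 without that guide. DEPTOR, an inhibitor of both complexes, had -0.18 ± 0.22 in H5.

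In the growth factor branch the 4 genes lay between -0.10 and -0.01. RHEB, the GTPase that activates mTORC1, had -0.05 ± 0.22. TSC1 and TSC2, which together switch RHEB off, had -0.01 ± 0.11 and -0.10 ± 0.32, and TBC1D7, the third subunit of that complex, had -0.04 ± 0.22. TSC2, the farthest from 0, had 1639, 1339, 2020, 1380 and 996 counts in H2 top, against 1109, 1624, 1544, 1091 and 870 counts in H2 bottom, with a lone low guide at -0.62. The guides of TSC1, TSC2 and RHEB were sequenced in the same pair of H2 libraries as those of LAMTOR5 and FLCN. Of the substrates, RPS6KB1, the S6 kinase, had 980, 2082, 1353, 1650 and 3191 counts in H1 top, against 675, 1405, 1163, 1327 and 2475 counts in H1 bottom, and a mean of 0.08 ± 0.15. EIF4EBP1, the repressor of the cap-binding protein eIF4E, had -0.06 ± 0.16 in H3.

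The sublibraries differ in how many targets they called, which bears on how the 30 genes are read. H2 held 11 of them, of which LAMTOR5, FLCN and SESN2 were called, beside 6.01% of its 3209 targets. H3 held 8, of which none was called, beside 7.52% of its 3323 targets. H7 held 5, among them FNIP1, NPRL3 and AKT1S1, none of them called, beside 0.583% of its 3946 targets.

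Repression can reach a second gene whose start lies close by. Guides of 5 of the 35 genes lay within 1000 bases of guides against a neighbour: AKT1S1 of TBC1D17, TSC2 of NTHL1, NPRL2 of CYB561D2, SESN1 of CEP57L1 and RPS6KB1 of TUBD1. None of the 5 called genes was among them. CYB561D2, 73 bases from NPRL2, had 0.15 ± 0.24 and was not called, and TBC1D17 lies in H4 and was not compared.

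Other genes of the pathway were taken in 9 lists of 101 compared genes, with 10 calls on the bright side (top) and 4 on the dim side (bottom), against 2.41% and 1.53% of all targets. The lists were chosen with earlier results of these data known, so these shares describe the lists and do not test them. Of these calls 9 were V-ATPase subunits. The V-ATPase acidifies the lysosome and takes part in amino acid sensing together with Ragulator, and of its 20 compared subunits 9 were called on the bright side, or 45% against 2.41% of all targets, and 0 on the dim side. The list median was 0.23. The largest values were 2.87 ± 1.36 for ATP6V1A, 2.56 ± 0.76 for ATP6V1B2, 1.68 ± 0.44 for ATP6V1C1, 1.56 ± 0.62 for ATP6AP1 and 1.32 ± 1.02 for ATP6V0C. This median has the opposite sign to that of Ragulator, -0.38 over 4 compared subunits; the difference was not tested.

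The list of S6 kinase and translation genes gave 2 calls of 14 genes, both on the dim side, where 1.53% of all targets were called. The other 12 were not called, and the list median was 0.02. RPS6, the ribosomal protein that S6 kinase phosphorylates, had -0.60 ± 0.31, and EIF4E, the cap-binding protein that EIF4EBP1 represses, had -0.56 ± 0.59. RPAP3, which with RUVBL1 and RUVBL2 helps assemble large kinases and RNA polymerases, was the single call among 7 genes of the TTT and mTOR folding list, at -0.72 ± 0.47 (adjusted p of 0.00332, permutation test), and RUVBL2 had -0.19 ± 0.16.

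Of 10 amino acid transporters SLC1A5, a glutamine carrier, was called at -2.63 ± 0.32, on the dim side, where 1.53% of all targets were called. The glutamine transporters SLC38A1 at 0.47 ± 0.59 and SLC38A2 at 0.41 ± 0.11 had adjusted p-values of 0.0527 and 0.0506 and were not called. SLC38A2 was singled out after its values were seen.

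A further 4 lists had no called gene in the permutation test, by which 3.94% of all targets were called. In lists of this size the absence of calls does not set them apart from all targets. They are the KICSTOR, CASTOR, SAMTOR and SESN3 list (6 compared, median 0.12), the mTORC2 and PI3K-AKT list (15, median 0.07), AMPK and LKB1 (12, median 0.04), and the MiT/TFE factors with the ULK1 complex (9, median -0.04). The genes farthest from 0 in them were C7orf60, known as SAMTOR, at 0.26 ± 0.40 and C12orf66 of KICSTOR at 0.16 ± 0.39; PIK3CB and PIK3CA, catalytic subunits of PI3 kinase, at 0.36 ± 0.21 and 0.29 ± 0.32; PRKAG2 of AMPK at -0.22 ± 0.20 and STK11, which encodes LKB1, at 0.17 ± 0.34; and TFEC at -0.15 ± 0.42 and MITF at -0.11 ± 0.15. TFEB and TFE3, the substrates whose recruitment depends on FLCN, are among the 9 uncalled genes of the last list. At an unadjusted p under 0.05 the mTORC2 and PI3K-AKT list had 4 genes and the other three lists had 0. KPTN of the KICSTOR list and PRR5L of the mTORC2 list lie in H4 and were not compared. GATSL2 of the KICSTOR list was not found among the guides. BLOC1S1 and KXD1, of a list not reported here, also lie in H4.

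**Figure D4:**
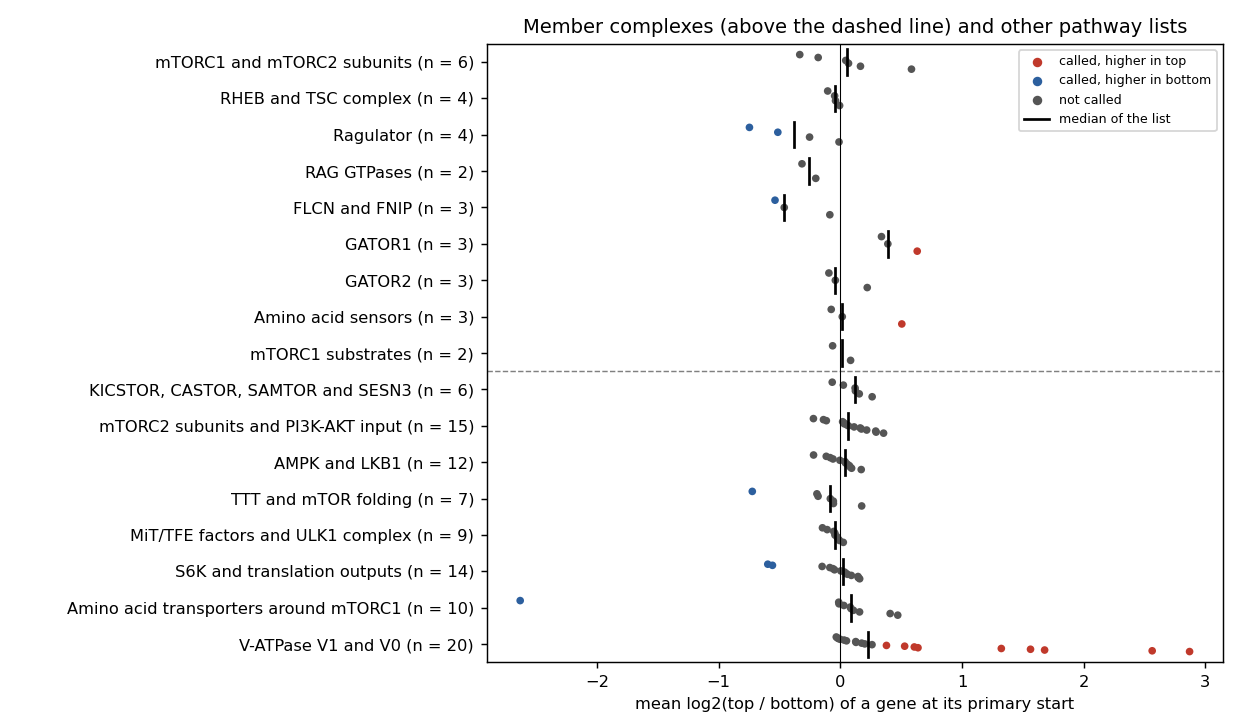
Each point is the mean log2(top/bottom) of 1 gene at its primary start, for the 9 member complexes above the dashed line and 8 other pathway lists below it, with the list medians as black bars and the number of compared genes in brackets. Ragulator, the RAG GTPases and FLCN with its partners have medians of -0.38, -0.26 and -0.46, GATOR1 has a median of 0.39 and the V-ATPase 0.23. The medians of the other lists drawn lie between -0.08 and 0.12.

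The abundance of guides in the sorted cells was read from the summed counts of both quartiles, relative to the median non-targeting guide on the log2 scale. It reflects both how often a guide stood in the virus pool and how cells carrying it grew, and these cannot be told apart. The median over the 35 genes was -0.11, and 20 of them were below 0. Over all targets the median lay between -0.20 in H1 and -0.05 in H3, so that the 35 genes are near what all targets show. Lowest was NPRL3 at -1.45 ± 2.24, which includes the guide dropped from the comparison, followed by AKT1S1 at -1.17 ± 1.59. RPTOR had -0.84 ± 1.82, at the 6.54th percentile of the targets in H2. MTOR had -0.43 ± 0.43, at the 30.3rd percentile of H1. Highest was FLCN at 0.59 ± 0.36, at the 97.5th percentile of H2, with all 5 guides above 0, although in the comparison of quartiles it lay on the dim side.

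The 5 genes of H4 have abundance only, from the bottom library. A shift between the quartiles therefore enters these values too, and cannot be told apart from abundance. Among compared genes, the bottom library alone gave -0.60 for DEPDC5, against -0.25 with both libraries summed. For LAMTOR5 it gave -0.11, against -0.49. LAMTOR1, the lipid-anchored subunit that wraps Ragulator, had 3117, 1663, 432, 2023 and 906 counts per guide and a mean of -0.04 ± 1.11. RRAGC had 1607, 2073, 1491, 3335 and 1380 counts, all at or above the non-targeting median, and a mean of 0.46 ± 0.52, at the 97.1st percentile of 2410 targets in H4. RRAGB had 955, 935, 1000, 420 and 1499 counts and a mean of -0.61 ± 0.67. SEC13 and SEH1L, which GATOR2 shares with the nuclear pore, had -0.97 ± 1.03 and -0.61 ± 0.84, at the 3.24th and 11.3rd percentile. SEC13, the lowest of these 5 genes, had 1268, 417, 1769, 441 and 390 counts. SEH1L had 713, 982, 1223, 1740 and 376 counts.

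**Figure D5:**
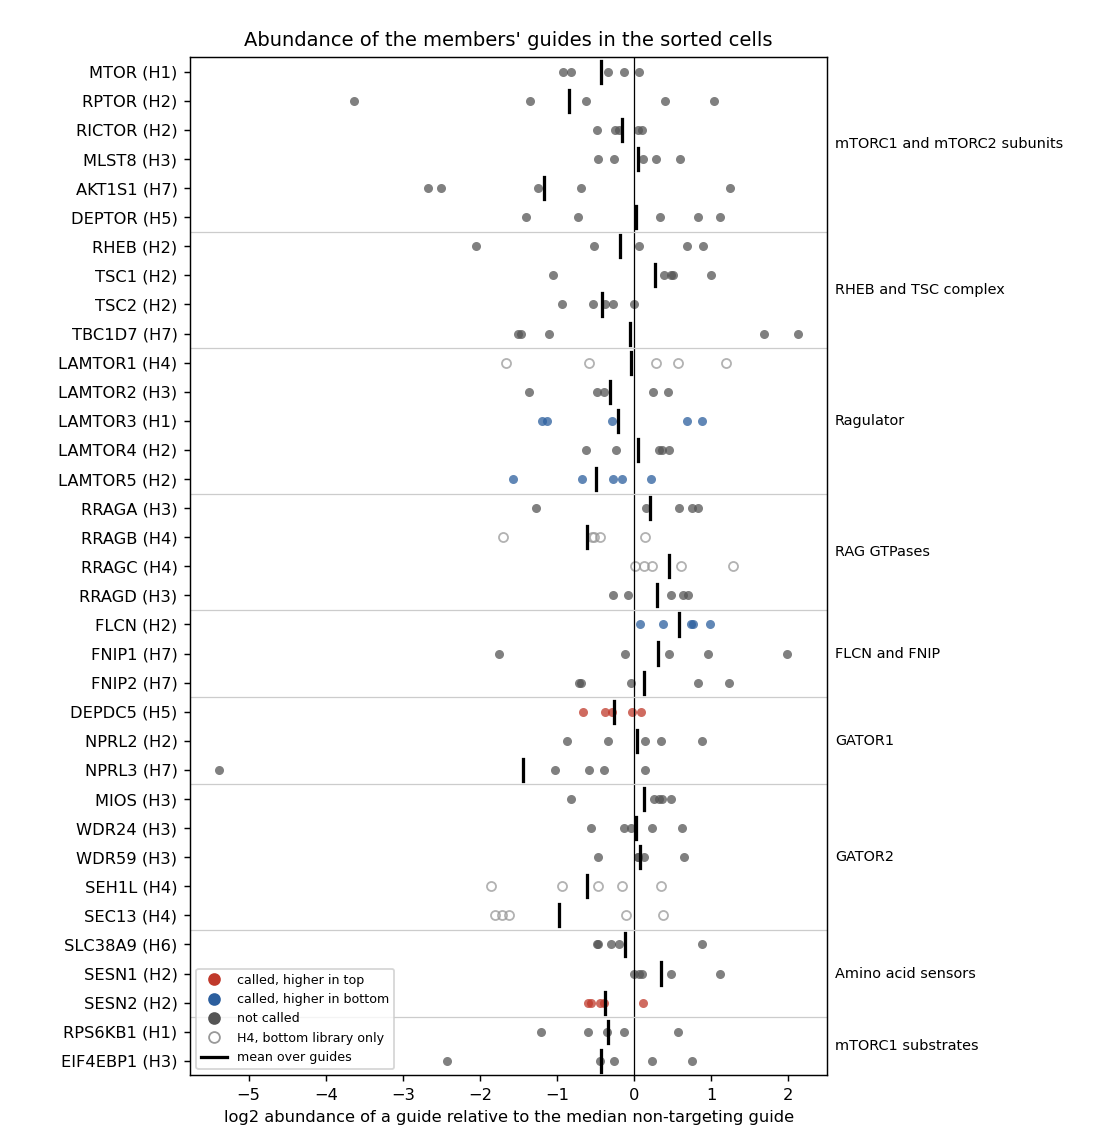
Each point is 1 guide of the 35 genes, on an axis of log2 abundance relative to the median non-targeting guide of its sublibrary, with means as black bars. Filled points sum the top and bottom library, and open points are the H4 genes from the bottom library. The 5 guides of FLCN lie right of 0, and the widest spread is that of NPRL3, whose dropped guide lies at -5.39.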

How the data were processed

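Guide RNAs were counted in genomic DNA of sorted HEK293 FLP-In cells, 1 library per sublibrary and quartile. The tables that the authors deposited hold raw counts, 1 whole number for each guide, not normalized. Per the submitters' processing notes Bowtie was used (version not given); the build to which guide positions refer was not given in the sources used here. A guide listed in just 1 quartile of a sublibrary was given 0 counts in the other. The H4 top table broke off after 35 complete guides, and H4 was not compared. Depth was 18054418 to 34636612 counts per compared library. Reads came from PCR without molecular identifiers, so that the counting SDs cover counting error only.

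A pseudocount of 1 was added, counts were divided by library totals, and the median non-targeting guide of each sublibrary was set to a log2(top/bottom) of 0. Guides with at least 50 counts in either library and targets with at least 3 guides entered. The mean of a target was compared with 100000 draws of the same number of guides, taken from its own and the non-targeting guides, in a two-sided permutation test, with Benjamini-Hochberg adjustment over 18116 targets and a threshold of 0.05. For genes with several starts the primary one was used. edgeR's quasi-likelihood test (version 4.0.16, R 4.3.3) has no residual degrees of freedom with 1 library per group, and was run as an alternative with guides as blocks. Scripts used Python 3.11.15, numpy 2.4.6, scipy 1.17.1 and numba 0.67.0. The tests were checked on simulated counts in which every guide had the spread of the non-targeting guides. A wider spread of the other guides was not covered by that check.

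The 35 genes and the pathway lists were chosen with earlier results of these data known, and no p-value was adjusted over a list alone. All 35 genes are named. Counts of every guide are given for each called gene and for the gene farthest from 0 in each complex, and for LAMTOR4, MTOR, NPRL2 and the H4 genes these were added after their values were seen. From each pathway list the called genes (at most 5, by size) and the 2 farthest from 0 are named. Of these, 1 list and its called gene, which is counted in the totals, are not reported here. Symbols were matched to RefSeq (GRCh38.p14), used for names, chromosomes and promoters only, and 18814 of 18905 matched. Alternatives covered the pseudocount, count filter, centring, median, farthest guide, rank-sum test, edgeR scaling, adjustment, background and number of draws, the last of these added after the data were seen.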

Additional observations from a re-analysis of the deposited data

How the results depend on the processing

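Each guide was paired between the top and the bottom library of its sublibrary. Repeated sorts could not be paired, because each group holds 1 library. Under 13 alternatives the directions of the 5 called genes held, and the calls held in 12 for LAMTOR5 and FLCN, 11 for LAMTOR3, 8 for DEPDC5 and 6 for SESN2. RRAGA was called in 4, NPRL2 in 2 and FNIP1 in 2, and of the 25 uncalled genes 8 changed sign (MLST8, MTOR, RHEB, RICTOR, TBC1D7, TSC1, TSC2 and WDR24). Of the 30 genes, those higher in the top quartile numbered 1 without a count filter and 1 with the median over guides, against 2. They numbered 0 without the guide farthest from 0, 0 with the exact rank-sum test, 0 with edgeR scaled on non-targeting guides, 0 with edgeR and TMM, and 0 with all guides as background (edgeR tested 29 genes, as NPRL3 has 4 guides); at an unadjusted p under 0.05 these settings gave 2, 5, 2, 2 and 5. Those higher in the bottom quartile numbered 5 with at least 500 counts and 0 with all guides as background (6 unadjusted), against 3. Over all targets the counts for the top and bottom quartile were 203 and 107 without the farthest guide, 146 and 97 with edgeR, 137 and 102 with TMM, and 85 and 35 with all guides as background, against 436 and 278; the rank-sum test gave 288 for the top. The pathway lists gave 6 and 1 with either edgeR scaling, 5 and 1 with all guides as background, and 2 for the bottom with the median or without the farthest guide, against 10 and 4. Fewer guides per gene (farthest guide left out) and fewer targets tested (17071 with edgeR) are part of those settings. When the farthest guide was left out, the draws it was compared with kept theirs, so that setting by itself favours fewer calls. Other causes were not tested. Abundance had a median of -0.11 with the bottom library alone and -0.13 relative to all guides. Single genes moved more with the bottom library alone: DEPDC5 from -0.25 to -0.60, SESN2 from -0.37 to -0.69 and, upward, LAMTOR5 from -0.49 to -0.11.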

Other observations

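Promoters of lysosomal genes often hold the palindrome CACGTG, the core of the element bound by the MiT/TFE factors, whose activity mTORC1 restrains. The motif was searched on the gene's strand, which covers both strands since it is a palindrome, in the RefSeq promoters of assembly GRCh38.p14 from 250 bases before to 50 bases from the start. Of the 28 genes of the module with a listed promoter, 7 held it: RRAGB, RRAGC, FNIP1, LAMTOR1, LAMTOR4, NPRL3 and TSC2. Of 35116 promoters, 7.26% held it. A gene with several listed starts had several chances to hold it, and the genes were not matched for the GC content of their promoters. RRAGB had 3 matches, at -115, -25 and 7 bases from a start, and FNIP1 had 2, at -175 and -94. None of LAMTOR5, LAMTOR3, FLCN, DEPDC5 and SESN2, whose promoters are printed above, held the motif in this window.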
